A study of Oryctolagus cuniculus with 3 samples.

Results

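The subcortical maternal complex is a protein assembly of the mammalian egg. Its core genes were taken here as OOEP, NLRP5, PADI6 and TLE6, and a gene row was used where its name was exactly one of these. Of the 4 genes, 3 were found (OOEP, NLRP5 and PADI6) among 39681 loci, of which 20008 were coding genes. No row carried the name TLE6, which is not analysed here. All 3 genes found had at least 10 estimated counts in a library, as had 15009 coding genes.

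The complex forms under the cortex of the growing oocyte and is inherited by the early embryo, where it is kept away from regions of contact between cells. In mice, eggs that lack a core member can be fertilised, but their embryos stop developing at the first cleavages. The genes are transcribed in the oocyte and are therefore counted among the maternal effect genes. The complex is also tied to the cytoplasmic lattices, fibrous structures that store maternal proteins in the egg.

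RNA came from rabbit cumulus-oocyte complexes, meaning the oocyte and the somatic cells around it, collected from the ovary at slaughter. The labels describe 150 female IRA rabbits (the breed as labelled) that were 35 days old when they were divided into 3 groups and kept for 4 weeks in controlled rooms. Ammonia was under 3 ppm in the control group (CG), 10 ppm in the low ammonia group (LAC) and 30 ppm in the high ammonia group (HAC), and no other treatment or genotype is named. Each group had 1 library, and the sources used here do not give the number of animals behind it. Differences between libraries therefore have no replicate check, no test was possible, and every interval below covers counting error only.

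Gene values were usable for CG and LAC alone, since all 39681 gene rows in the HAC file were identical to those of LAC. Counts of the shared table matched those computed from the non-coding coverage labelled LAC, to within 5%, at 97.2% of loci, and those from the coverage labelled HAC at 4.12%, so both tables labelled LAC hold the same library. Which ammonia group this library came from is uncertain, because the table's largest FPKM value (39492) is the one that the statistics of the HAC file give. The name "library labelled LAC", or LAC, is used in this sense throughout. Estimated counts summed to 78461882 in CG and 68523767 in LAC, and a count stood for about 0.5 reads. Spliced reads made up 22.01% of reads in the mapping statistics of CG and between 16.23% and 19.89% in those of the other files. Rows without a RefSeq messenger RNA took 24.6% of counts in CG and 34.2% in LAC. The labelled cell type matched its markers: GJA1, the gap junction gene of cumulus cells, had 4933 and 4814 CPM, and BMP15, a growth factor of the oocyte, had 1771 and 344.5 CPM. CPM is a count relative to library size, after scaling by trimmed means (TMM).

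All 3 genes of the complex were well represented in CG and lower in the library labelled LAC, each by about the same factor. NLRP5 was 4.11-fold lower, PADI6 4.10-fold lower and OOEP 3.85-fold lower, and the 3 counting intervals overlapped. All 3 passed the size rule for a lower value, which asks for a difference of at least 1 in log2(CPM + 1) and at least 10 counts in the higher library. By the same rule 11.0% of coding genes were lower (1653 of 15009) and 1.89% were higher. Among the 1547 coding genes with 100 to 300 CPM in CG, the range that holds the 3 genes, 11.1% were lower and 0.323% higher. The median log2 difference, LAC minus CG, was -2.01 over the 3 genes and -0.14 over all coding genes with enough counts. In bulk RNA, fewer oocytes relative to somatic cells and less of these RNAs per oocyte cannot be told apart.

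OOEP encodes a small protein with a KH-like fold that holds the complex together, and is also known as FLOPED. Its locus, MSTRG.10988, lies at NC_013680.1:60237202-60238449 on the minus strand of OryCun2.0 and carries the RefSeq transcript XM_002714425.2. It had 10227 estimated counts in CG and 2276 in LAC, which is 129.2 and 33.5 CPM. CG held the higher value. The log2 difference was -1.92 and the fold 3.85 (95% interval 3.61 to 4.11). Of the 15009 coding genes, 392 (2.61%) had a difference as low or lower.

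NLRP5, known in the mouse as Mater, belongs to the NLRP family of proteins with leucine-rich repeats and a nucleotide-binding domain, and is a scaffold of the complex. Its locus, MSTRG.24558, lies at NW_003159565.1:307417-349377 on the plus strand. It had 21355 estimated counts in CG and 4461 in LAC, which is 269.7 and 65.7 CPM. CG again held the higher value. The log2 difference was -2.02 and the fold 4.11 (3.92 to 4.30). A difference as low or lower was found in 311 coding genes (2.07%).

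PADI6 is the oocyte member of the peptidylarginine deiminases, enzymes that turn arginine into citrulline, and is needed for the cytoplasmic lattices. Its locus, MSTRG.24402, lies at NW_003159541.1:85612-103943 on the plus strand and carries XM_008251559.2. It had 15853 estimated counts in CG and 3313 in LAC, which is 200.2 and 48.8 CPM. The lower value was again the one labelled LAC. The log2 difference was -2.01 and the fold 4.10 (3.89 to 4.33), with 320 coding genes (2.13%) as low or lower.

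**Figure D1:**
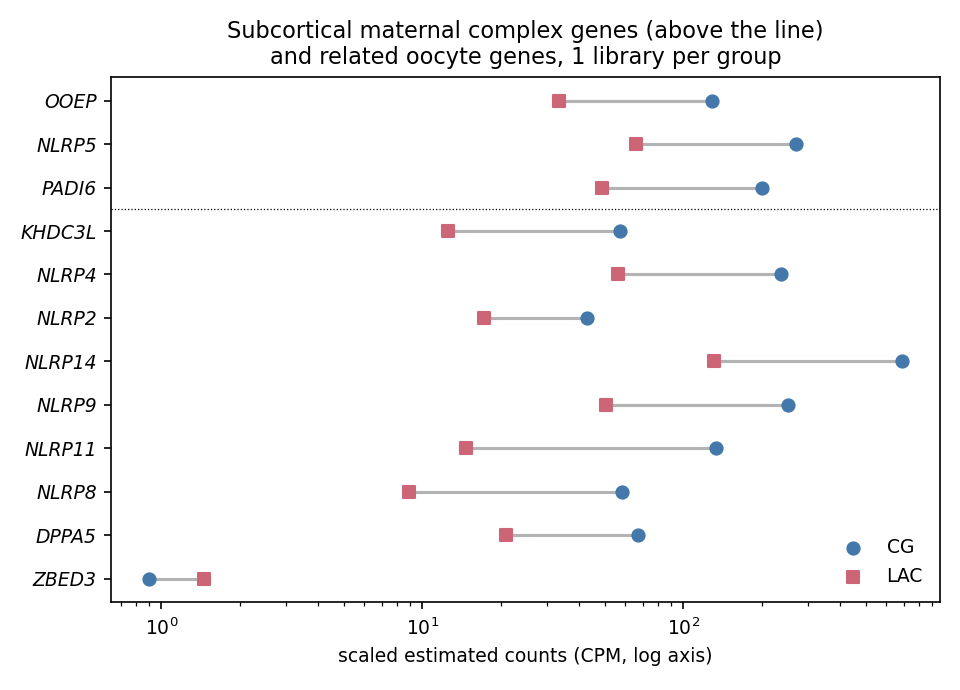
Scaled estimated counts (CPM, logarithmic axis) of the 3 genes of the complex, above the dotted line, and of 9 related genes in the libraries labelled CG (circles) and LAC (squares), with 1 library per group. In 11 of the 12 genes the LAC value lies to the left of the CG value, and the exception is ZBED3, near 1 CPM.

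Ratios between the genes within a library need no scaling and were nearly the same in both. For every 100 counts of NLRP5 there were 74.2 counts of PADI6 in CG (72.1 to 76.4) and 74.3 in LAC (69.6 to 79.2). For OOEP the ratio to NLRP5 was 47.9 per 100 in CG (46.3 to 49.5) and 51.0 in LAC (47.5 to 54.8). OOEP per 100 counts of PADI6 was 64.5 in CG (62.3 to 66.8) and 68.7 in LAC (63.7 to 74.2). In these 3 ratios the intervals of both libraries overlapped. They compare a gene pair between libraries and do not rank the genes, since counts also depend on transcript length. Levels were not ranked between genes, because the deposited gene FPKM values imply a transcript of 1440 bases for OOEP, whose whole locus spans 1248.

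Other rows could in principle share reads with these genes. A locus described as an OOEP homolog (LOC100340858), one described as deiminase type 6 (LOC103350009) and one described as KHDC3-like (LOC100358466) had 0 counts in both libraries. A locus described as NLRP5-like (LOC108178440) had 14 counts in CG and 0 in LAC. These rows were found by their deposited descriptions after the values had been seen. How the estimation step divided reads between such copies was not tested.

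Proteins that bind the core complex or were found with it were next. Of the 5 genes in this list, 4 were found and 3 were lower by the size rule, with a list median of -1.66. KHDC3L, the human counterpart of mouse Filia and a partner of OOEP, stood at 57.3 CPM in CG and at 12.5 in LAC, 4.57-fold lower (4.12 to 5.08). NLRP4 had 236.9 and 56.2 CPM, 4.22-fold lower (4.01 to 4.43). NLRP2 had 42.6 and 17.3 CPM, 2.47-fold lower (2.25 to 2.72), a smaller factor than that of any gene of the core, with no overlap of the intervals. ZBED3, which interacts with the complex in mouse eggs, had 0.90 and 1.46 CPM, a difference of 0.37 that did not pass the rule. NLRP7 was not matched.

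Relative to the core genes, these partners did not keep one ratio. NLRP4 per 100 counts of NLRP5 was 87.8 in CG (85.4 to 90.3) and 85.5 in LAC (80.4 to 91.0), which overlap. NLRP2 per 100 counts of NLRP5 was 15.8 in CG (15.0 to 16.6) and 26.3 in LAC (24.0 to 28.8). KHDC3L per 100 counts of OOEP was 44.4 in CG (42.2 to 46.6) and 37.4 in LAC (33.4 to 41.9). The ratios of NLRP2 to NLRP5 and of KHDC3L to OOEP thus differed between the libraries by more than counting error. The fold interval of KHDC3L (4.12 to 5.08) overlapped those of NLRP5 (3.92 to 4.30) and PADI6 (3.89 to 4.33). A larger factor for KHDC3L was therefore seen against OOEP alone.

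The cytoplasmic lattice list held NLRP14, an oocyte member of the NLRP family, UBE2D3, a broadly expressed ubiquitin-conjugating enzyme, and UHRF1, which was not matched. NLRP14 stood at 689.4 CPM in CG and at 130.6 in LAC, 5.28-fold lower (5.11 to 5.45), and UBE2D3 had 679.4 and 333.5 CPM, 2.04-fold lower (1.99 to 2.08). Both were lower by the size rule, with a median of -1.71. UBE2D3, with a difference of -1.02, no longer passed it when the scaling used coding genes alone. NLRP14 per 100 counts of NLRP5 was 255.6 in CG (249.9 to 261.4) and 198.9 in LAC (189.0 to 209.4), so it was lower by a larger factor than NLRP5.

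The NLRP family was mostly lower where it was expressed. The list of 17 genes other than NLRP5 also held the related NLRX1, NLRC3, NLRC4 and NLRC5, which are not NLRP genes. Of these 17, 14 were found, 10 had enough counts, 7 were lower and 0 higher. The list median of -1.94 includes NLRP2, NLRP4 and NLRP14. NLRP9 had 252.1 and 50.6 CPM in CG and LAC (4.98-fold lower). NLRP8 had 58.2 and 8.89 CPM (6.54-fold lower, 5.80 to 7.40). NLRP11 had 133.2 and 14.7 CPM, the largest factor among the NLRP genes counted in both libraries, at 9.03-fold (8.25 to 9.93). NLRP8, NLRP9 and NLRP11 are, like NLRP5, members known mainly from oocytes and early embryos. NLRC5, a regulator of antigen presentation genes, had 6.61 and 1.15 CPM (5.75-fold lower). The NLRP11 and NLRP4 loci overlap on opposite strands, and the sources used here do not say whether counting used strand.

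Several other genes of this list had few or no counts in both libraries. NLRP6, NLRP10, NLRP12 and NLRC4 had 0 counts in both. NLRP3, the best known inflammasome sensor, had 4 counts in CG and 15 in LAC, and NLRC3 had 0 and 29. NLRX1, whose protein is mitochondrial, had 242 and 300 counts, which is 3.06 and 4.42 CPM (difference 0.42), and did not pass the rule. A locus described as NLRP9 under another number, LOC100349208, had 469.6 and 85.9 CPM (5.47-fold lower), and LOC100358819, described as NLRP12 or NLRP3, had 11.9 and 3.53 CPM (3.36-fold lower). The last pair was chosen after the values had been seen.

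The genes that inflammasome sensors act through gave no lower or higher call, but only NEK7 was high enough for one. IL1B, IL18 and GSDMD were below 1 CPM in both libraries, where the 1 added to CPM in the rule keeps any difference from passing. Of 6 genes, 5 were found, 4 had enough counts and 0 passed the rule, with a median of -0.04 that turned to 0.05 when scaled on coding genes alone. NEK7, a mitotic kinase that also binds NLRP3, had 64.3 and 67.4 CPM. IL1B, the cytokine interleukin 1 beta, had 0 and 16 counts, IL18, a related cytokine, had 13 and 3, GSDMD, the pore protein gasdermin D, had 17 and 4, and CASP1, the inflammasome caspase, had 0 in both.

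The other deiminases were scarce. All 4 were found, PADI1 and PADI2 through their RefSeq gene numbers, and 1 was lower, with a median of -0.35. PADI1, PADI3 and PADI4 were below 1 CPM in both libraries, where the 1 added to CPM keeps any difference from passing. Only PADI2 could therefore be called. PADI2, a widely expressed deiminase, stood at 3.61 CPM in CG and at 0.49 in LAC, 7.43-fold lower (4.56 to 13.8). PADI3, known from skin and hair follicles, had 0.90 and 0.34 CPM (difference -0.50). PADI4, known from granulocytes, had 11 and 0 counts, and PADI1, known from epidermis, 0 and 17. Within this family PADI6 thus supplied nearly all counts in both libraries.

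TLE6 belongs to the transducin-like enhancer family of corepressors, and 3 of the 6 other symbols listed for it were found. None passed the rule: TLE1 had 26.1 and 18.2 CPM (difference -0.50), TLE3 19.3 and 20.4 CPM (0.07) and TLE4 26.0 and 27.0 CPM (0.05). TLE2 and TLE5, the latter also listed under its former symbol AES, were not matched. LOC103348514, which RefSeq names TLE7 and the files describe as TLE2, had 54.4 and 10.0 CPM, 5.41-fold lower (4.83 to 6.09). It lies at NC_013673.1:28128951-28134785, was singled out after its values had been seen, and is not taken here as TLE6.

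KHDC3L and OOEP belong to a group of KH-domain proteins that also holds DPPA5, a gene of pluripotent and germ cells. Of 7 genes, 4 were found and 2 were lower, with a median of -0.94. DPPA5 had 66.9 CPM in CG and 20.97 in LAC, 3.19-fold lower (2.94 to 3.47). The broadly expressed RNA-binding genes KHDRBS1 (156.3 and 144.8 CPM) and KHSRP (59.0 and 49.7 CPM) did not pass the rule.

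**Figure D2:**
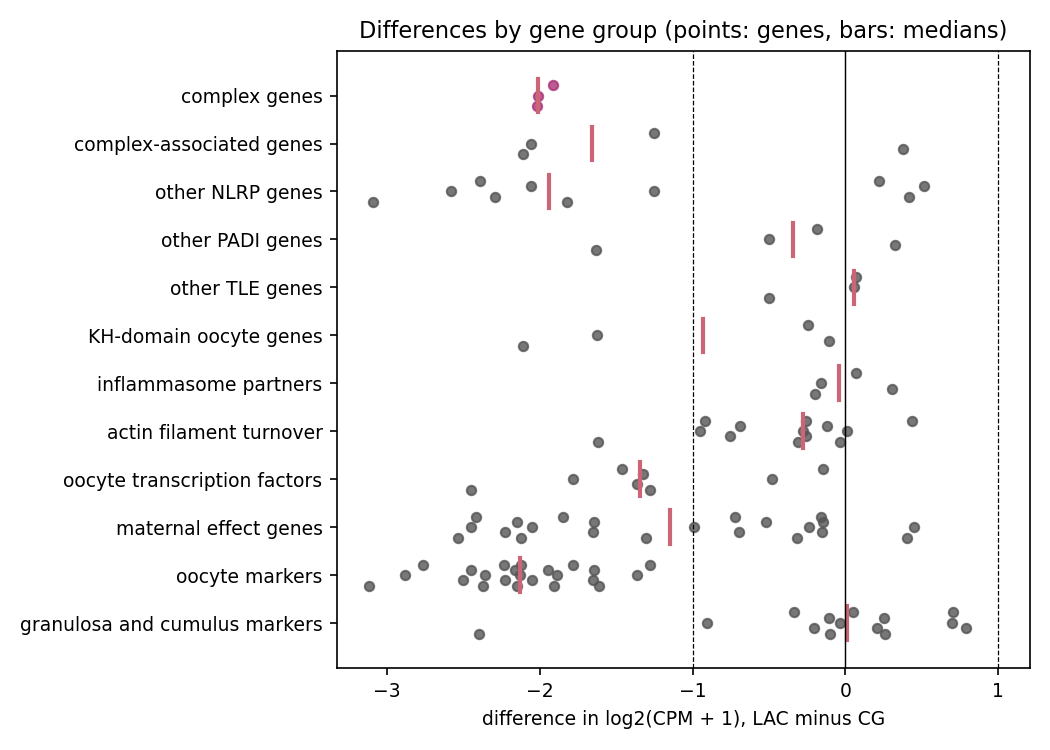
Difference in log2(CPM + 1), LAC minus CG, of each gene with at least 10 counts, by gene list, with the list median as a bar and the size rule as dashed lines. The 3 genes of the complex lie near -2, as does the median of the oocyte markers (-2.13), while the granulosa and cumulus markers have a median of 0.01.

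The chromosomal setting of the genes was then described, since OOEP and NLRP5 each lie in a cluster of related genes. KHDC3L lies 7.10 kb to the left of OOEP, and DPPA5 lies 64.4 kb away on the same side. On the right, DDX43, an RNA helicase gene at 32.7 kb, had 2.90 and 0.56 CPM in CG and LAC, a difference of -1.32 that passed the rule. MB21D1, the gene of the DNA sensor cGAS, at 52.8 kb, had 2.97 and 0.96 CPM (difference -1.02, past the rule). MTO1, a mitochondrial tRNA modification gene at 84.9 kb, had 15.4 and 16.1 CPM (difference 0.06). An assembled locus without annotation, MSTRG.10986, at 41.2 kb, had 12.9 and 2.90 CPM, 4.45-fold lower (3.60 to 5.62). Lower loci and loci that did not pass the rule thus stood within 100 kb of OOEP.

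NLRP8 lies 3.38 kb to the left of NLRP5, followed by NLRP4 at 49.8 kb and NLRP11 at 73.4 kb, all lower as given above. NLRP8 per 100 counts of NLRP5 was 21.6 in CG (20.6 to 22.6) and 13.5 in LAC (11.97 to 15.3), so these adjacent genes were lower by different factors. On the right the nearest coding gene, LOC103346145, had only 18 and 8 counts.

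PADI6 lies in the deiminase cluster, with PADI4 6.57 kb to the left and PADI3 at 41.8 kb. RCC2, a chromosome condensation regulator, starts 2.57 kb to the right and stood at 63.2 CPM in CG and at 53.6 in LAC, 1.18-fold lower (1.11 to 1.25), which did not pass the rule. Of the coding genes within 100 kb of PADI6, PADI6 itself was the one past the rule. Its neighbours other than RCC2 were below 1 CPM in both libraries, where the pseudocount of 1 CPM keeps any lower value from passing.

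**Figure D3:**
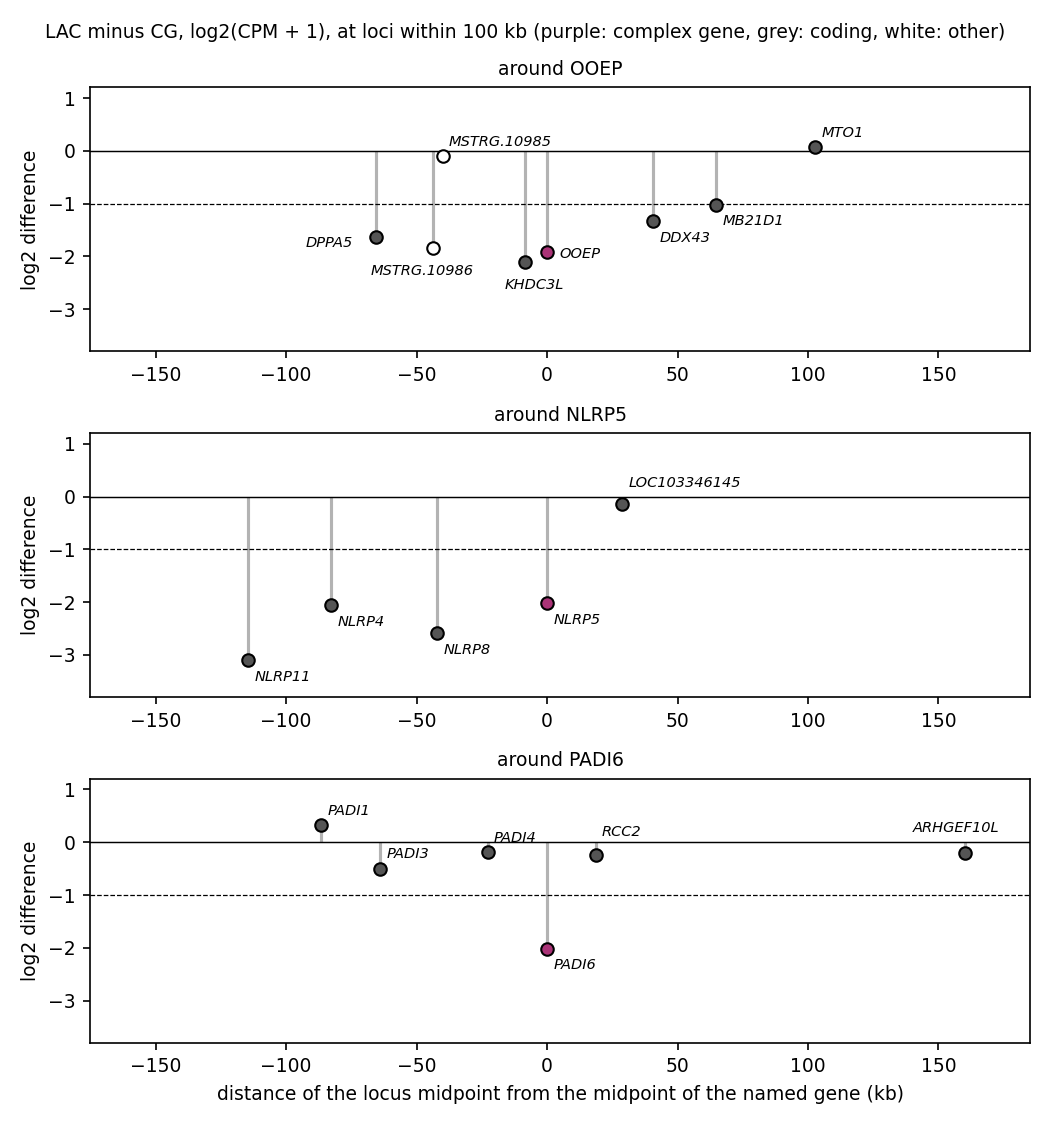
Difference in log2(CPM + 1), LAC minus CG, of loci with at least 10 counts whose nearer edge is within 100 kb of OOEP, NLRP5 or PADI6, by distance between midpoints in kb, where the dashed line marks the size rule. Lower genes lie on both sides of OOEP and to the left of NLRP5. Around PADI6, RCC2 lies near 0 and PADI3 at -0.50, while PADI4, also near 0, had only 11 and 0 counts in CG and LAC.

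The genes of the complex were set among markers of the cells a cumulus-oocyte complex can hold. Of 30 oocyte markers, 24 were found and 23 had enough counts. All 23 were lower, with a median of -2.13 and a range from -3.12 to -1.28, and their summed level was 5997 CPM in CG and 1191 CPM in LAC. The 3 genes lay inside this range: 15 of the 23 markers had a lower difference than OOEP, and 14 had a lower one than NLRP5 or PADI6. RSPO2, a Wnt pathway ligand of the oocyte, had the lowest, at 204.2 and 22.6 CPM (9.04-fold lower). These ranks depend on the pseudocount, which shrinks differences at low levels. FIGLA, with the smallest difference, was 6.17-fold lower, and NOBOX 4.54-fold. By fold, only CPEB1 (3.16) and MOS (3.27) had a smaller factor than OOEP. ZP1, ZP4 and H1-8 also had a smaller factor than NLRP5 and PADI6.

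Of 17 granulosa and cumulus markers, 15 were found, 14 had enough counts and 1 was lower, SLC18A2, a monoamine transporter gene (47.2 and 8.14 CPM). The list median was 0.01, which turned to -0.03 with median-of-ratios scaling and to 0.18 with scaling on coding genes alone. Their summed level was 14933 CPM in CG and 15074 CPM in LAC, with a range of differences from -2.40 to 0.79. The upper end is HSD17B1 (318.5 and 550.1 CPM), whose locus is merged with ATP6V0A1, and the INHA locus is merged with OBSL1. The sums may therefore include counts of these other genes. IHH, a hedgehog ligand, had 220.8 and 117.6 CPM. When counts were scaled to the summed counts of these markers, a choice made after seeing the data, OOEP, NLRP5 and PADI6 differed by -1.93, -2.03 and -2.03.

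Markers of other cells also differed between the libraries. Fibroblast and stroma markers summed to 59.3 CPM in CG and 156.1 CPM in LAC, with 5 of 10 higher and 1 lower, and DCN, the proteoglycan decorin, had 4.46 and 31.1 CPM. Endothelial markers had a median difference of 0.16, with 1 of 8 lower: TEK, the angiopoietin receptor, had 46.7 and 4.23 CPM, most of the list's sums of 50.2 and 9.06 CPM. The adhesion gene PECAM1 had 76 counts in CG and 90 in LAC, and VWF, the clotting factor carrier, had 72 and 92. CDH5, the endothelial cadherin, had 0 and 48, and ERG, an endothelial transcription factor, 0 and 19. Macrophage markers had a median difference of 0.43, with 2 of 8 higher, MRC1 (0.73 and 8.04 CPM) and CD163 (0.10 and 1.43 CPM), both scavenging receptors, and 1 lower. That 1 was MSR1, another scavenger receptor, whose 47.3 and 8.20 CPM made up most of the CG sum, so that the list summed to 56.7 and 30.07 CPM. Epithelial markers summed to 82.9 and 21.8 CPM, with 2 of 4 lower, CDH1 (64.1 and 12.8 CPM) and EPCAM (17.7 and 4.95 CPM), and 1 higher, while KRT19, PAX8, OVGP1 and FOXJ1 had 0 counts in both. The part of these differences, and of the oocyte share, in the values of OOEP, NLRP5 and PADI6 was not tested.

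**Figure D4:**
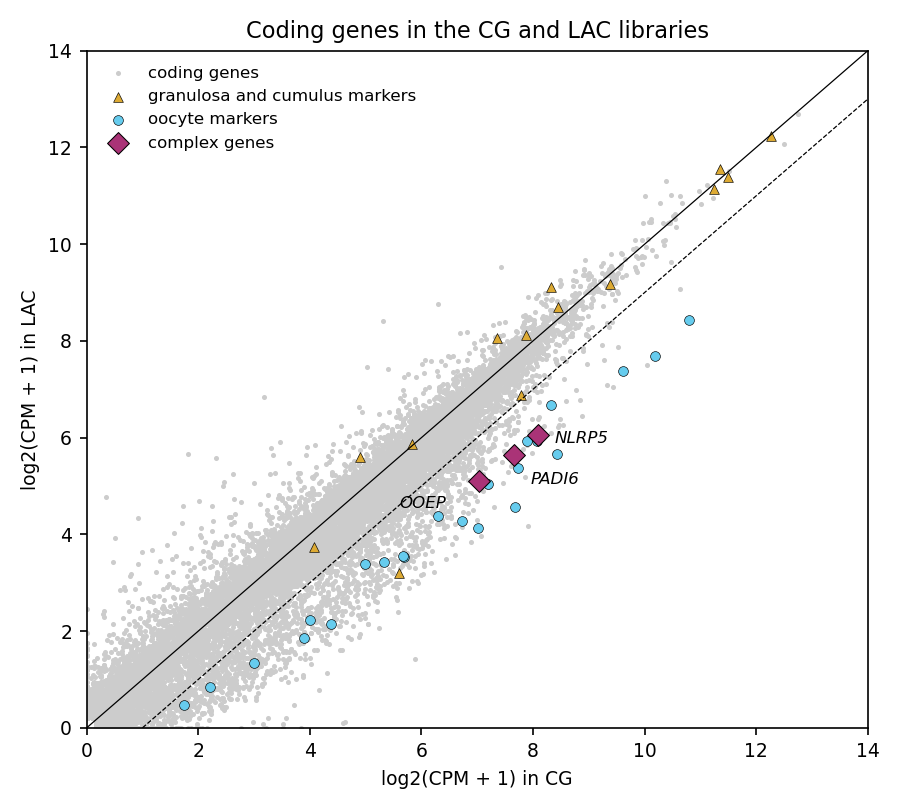
log2(CPM + 1) of coding genes in the libraries labelled CG (horizontal) and LAC (vertical), with the complex genes as diamonds, oocyte markers as circles and granulosa and cumulus markers as triangles. The solid line is equality and the dashed line a difference of -1, and the 3 diamonds lie below the dashed line among the oocyte markers.

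Most of the transcription factors listed for the oocyte were lower. Of 10 listed, 9 were found, of which 4 are also oocyte markers, 8 had enough counts and 6 were lower: FIGLA, NOBOX, LHX8, SOHLH2, TAF4B and TBPL2. The median was -1.34. SOHLH2 had 24.0 and 3.58 CPM (6.70-fold lower) and LHX8 15.1 and 3.67 CPM (4.11-fold lower). GATA4 (109.3 and 98.4 CPM) and FOXO3 (65.9 and 47.0 CPM) did not pass the rule.

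Other maternal effect genes, whose products the egg supplies to the embryo, were divided. Of 25, 22 were found, 11 were lower and 0 higher, with a median of -1.15, and 7 of the 22 are also oocyte markers. DNMT1, the maintenance DNA methyltransferase, had 1058 and 181.2 CPM (5.84-fold lower). BTG4, an adaptor for maternal RNA decay, had 784.3 and 166.3 CPM (4.72-fold lower), and UCHL1, a ubiquitin hydrolase, had 105.5 and 18.5 CPM (5.72-fold lower). Genes that did not pass the rule included CNOT6L (259.1 and 232.1 CPM) and TRIM28 (162.4 and 146.5 CPM).

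Regulators of actin filament turnover were listed because the mouse complex is tied to the actin of the egg. All 13 were found and 1 was lower, TESK2, a kinase that acts on cofilin, at 26.5 and 7.94 CPM (3.34-fold lower). The list median was -0.28, beside -0.14 for all coding genes. CAP1, a cyclase-associated actin regulator, had 688.2 and 671.6 CPM, DSTN, an actin-severing protein, had 250.1 and 205.8 CPM, and LIMK1, a cofilin kinase, had 34.5 and 17.4 CPM with a difference of -0.95 that did not pass the rule.

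Among other coding genes with a symbol of their own, those nearest in CPM over both libraries were found by distance on the log2(CPM + 1) values. Loci named by a LOC number or by several genes were left out of this search. Nearest to OOEP were ZNF652 (distance 0.03, 127.3 and 32.9 CPM), ZP3, a zona pellucida glycoprotein (0.19), and USP44, a deubiquitinase (0.19). Nearest to NLRP5 were IPO8, an importin (0.12), GDF9, an oocyte growth factor (0.12), and PBK, a mitotic kinase (0.14). Nearest to PADI6 were AKAP1, a mitochondrial anchoring protein (0.20), ZBTB8B (0.21) and IL1RAPL2 (0.23). With 2 libraries this measure says only that both levels were alike.

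Long non-coding transcripts were the one kind of locus with a value in all 3 libraries. Within 100 kb of OOEP there were 2, and none within 100 kb of NLRP5 or PADI6. MSTRG.11000.2, a 496-base transcript that shares a splice junction with MB21D1, had an FPKM (fragments relative to transcript length and sequencing depth) of 2.42 in CG (1.79 to 3.17), 0.48 in LAC (0.22 to 0.90) and 3.58 in HAC (2.79 to 4.48). LAC was the lowest, with no overlap with the others, while the intervals of CG and HAC overlapped. MSTRG.10985.1, an intergenic transcript of 306 bases with no strand, lies 39.2 kb from OOEP. It had 0.40 (0.12 to 0.90), 0.16 (0.02 to 0.62) and 1.44 (0.84 to 2.25), from about 5, 2 and 18 reads, too few to order CG and LAC.

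One annotated non-coding isoform of an oocyte gene in the marker list was read alongside. XR_001792385.1, at TCL1A, an activator of the kinase AKT, had 1.51 in CG (1.24 to 1.83), 0.18 in LAC (0.09 to 0.32) and 2.19 in HAC (1.85 to 2.57), none overlapping. LAC was thus below CG and HAC beyond counting error at MSTRG.11000.2 and XR_001792385.1. HAC held the highest value at all 3 transcripts, but its interval lay wholly above that of CG at XR_001792385.1 alone. Overlap of the HAC and CG intervals at the other transcripts does not show that these libraries were equal there. Messenger RNA values of OOEP, NLRP5 and PADI6 in HAC were not analysed here.

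**Figure D5:**
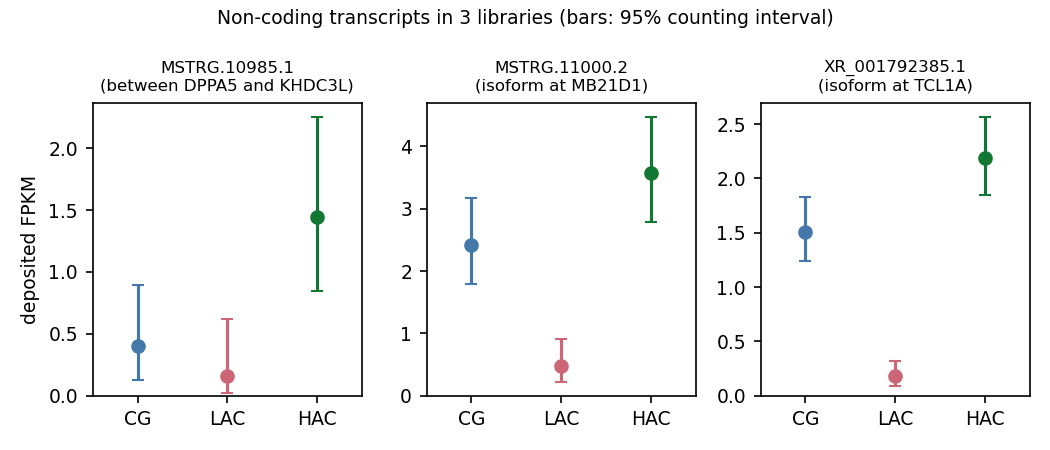
Deposited FPKM of 3 long non-coding transcripts in the libraries labelled CG, LAC and HAC, with 95% counting intervals as bars and separate linear axes from 0. The LAC interval lies below those of CG and HAC for MSTRG.11000.2 and XR_001792385.1, and overlaps that of CG for MSTRG.10985.1.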

How the data were processed

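RNA of cumulus-oocyte complexes was depleted of ribosomal RNA and the second strand marked with dUTP, per the labels' protocols. The tools fastp and HISAT2 and the build OryCun2.0 are listed in the submitters' processing notes with no version. The tool for transcript assembly and abundance was not given in the sources used here. The authors deposited, per the file headers, estimated counts and FPKM per gene, and both coverage (a signal, the mean depth of reads) and FPKM per long non-coding transcript. At loci with 1 long non-coding transcript and coverage above 2, the count equalled coverage times length over 75, within 5%, for 96.3% of 8651 loci in CG and 97.2% of 8638 in LAC. With reads of 150 bases a count is therefore about 0.5 reads, and intervals were computed on halved counts. Of 12 value columns, 2 (the gene block in the HAC file, a copy) were left unused.

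Counts were scaled with TMM factors from their formula (30% of ratios and 5% of levels trimmed), tested on simulated data, with Python 3.11.15, pandas 2.3.3, numpy 2.4.6, SciPy 1.17.1 and matplotlib 3.10.9. Differences used a pseudocount of 1 CPM. Folds are ratios of CPM with exact Clopper-Pearson 95% intervals. A row with a RefSeq messenger RNA was called coding. LOC numbers were named through RefSeq mOryCun1.1, of which no coordinate was used, and a listed gene took its coding row with most counts. The members and the 17 gene lists were chosen with earlier results of these data known. The naming rule took the members and every gene with enough counts in the lists of related genes. From the other lists it took up to 2 genes by level and 2 by difference. It also took the 3 genes with a symbol of their own nearest in level to each member, and the nearest coding gene on each side. Genes outside this rule are named as well, among them IL18, CASP1, VWF, ERG, CD163, KRT19, MB21D1 and MTO1. Alternatives changed the scaling, pseudocount, count minimum, size rule, unit and window.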

Additional observations from a re-analysis of the deposited data

How the results depend on the processing

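Each of OOEP, NLRP5 and PADI6 was lower in LAC under every alternative tried, and all 3 passed the size rule except where it asked for a difference of 2, which left 2, NLRP5 and PADI6. With TMM factors from coding genes alone, OOEP, NLRP5 and PADI6 differed by -1.74, -1.85 and -1.84, with a median of -1.84; that scaling moved the median of all coding genes by 0.14, and 8.93% of them were lower. With a pseudocount of 5 CPM, OOEP differed by -1.80 and PADI6 by -1.93, with a median of -1.93. Under median-of-ratios factors, library totals, deposited FPKM and a pseudocount of 0.1 the medians lay between -2.08 and -2.03. Within 20 kb there were 0 long non-coding loci near the 3 genes, where 100 kb gave 2. The number of coding genes lower by the rule moved more: 1653 became 2740 with a pseudocount of 0.1, 909 with one of 5, and 323 with a size rule of 2. No paired analysis was possible because there was 1 library per group, and no library could be left out. Depth limits PADI1, PADI4, NLRP3, NLRC3 and the non-coding transcripts, which rest on few reads.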

Other observations

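The functional terms that the deposited annotation attaches to the 3 genes were read after the values had been seen, and each is given by the genes with enough counts, beside the 11.0% of all coding genes that were lower and their median of -0.14. Embryo implantation, a term of NLRP5 and OOEP, held 24 genes, of which those 2 were lower (8.33%) and 3 were higher (MST1, TGFBR2 and LOC100350215), with a median of 0.03. Fertilization held 23, with 5 lower (21.7%: NLRP5, OOEP, APOB, DUOX2 and SYCP2), 0 higher and a median of -0.23. In utero embryonic development held 124, with 15 lower (12.1%), 2 higher and a median of -0.15. Embryonic pattern specification held 16, with 2 lower (12.5%), OOEP and RIPPLY2. Protein citrullination held 5, with 2 lower, PADI6 and the locus of PADI2. The shares for implantation, in utero development and pattern specification were near that of all coding genes. Each term was chosen through OOEP, NLRP5 or PADI6, and these lower genes are counted in its share, which raises it.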
